A study of Mus musculus with 12 samples.

Results

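The GABA-A receptor is the chloride channel through which the transmitter GABA inhibits neurons, and the 9 genes described here encode subunits of it: Gabra2, Gabra3, Gabra4, Gabra5, Gabrb1, Gabrg1, Gabrd, Gabre and Gabrq. They were found by symbol and were 9 of the 15397 genes measured in mouse striatum. Gabrb2, Gabrg3 and Gabrr2, which also encode subunits of this receptor family, had values too and are set beside them, and other subunits are not reported here. The 9 were selected on differences in expression between the 4 groups of these data, without a stated threshold, so their own differences and adjusted p-values are given as a description and support nothing further.

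RNA was sequenced from striatum dissected out of the brains of C57BL/6 mice in 4 groups of 3 mice. These were R6/2 mice given PLX3397, R6/2 mice given vehicle, wild-type mice given PLX3397 and wild-type mice given vehicle. PLX3397 blocks Csf1r, the receptor that microglia need to survive, and was fed in chow at 275 ppm from week 7 to week 11 of age in order to remove microglia. R6/2 mice are a model of Huntington's disease that carries the start of the human huntingtin gene with an expanded repeat as a transgene, expressed widely in the body and not in 1 cell type. The labels do not give the sex of the mice or which part of the striatum was taken.

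A GABA-A receptor is a ring of subunits around a chloride pore, usually built of alpha and beta subunits with a gamma or delta subunit. GABA binds between alpha and beta subunits, and benzodiazepines bind between alpha and gamma subunits. Receptors with gamma subunits gather at synapses on a gephyrin scaffold, while receptors of alpha4 with delta lie outside synapses and carry a tonic current. In the striatum such tonic inhibition is known from medium spiny neurons, the GABA-releasing projection neurons that Huntington's disease damages. Epsilon and theta subunits are rare forms known mainly from the hypothalamus and from monoamine neurons of the brainstem.

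Levels are log2 CPM, the logarithm of read counts scaled to the size of their library, as the authors deposited them. The libraries held 18902120 to 24293208 reads in genes, and replicates correlated at r = 0.938 to 0.986 across genes. Summed RNA of 10 microglial markers was at 4.70 to 5.25 log2 CPM in R6/2 mice on PLX3397, 8.56 to 9.03 in R6/2 mice on vehicle, 4.92 to 5.76 in wild-type mice on PLX3397 and 8.73 to 8.93 in wild-type mice on vehicle. At most 2 of these microglial markers were at 0 reads in a library. All 14 medium spiny neuron markers were detected in each library. Libraries also stood apart within groups: summed cortical neuron markers were at 7.19 and 6.66 in R6/2 PLX3397 libraries 1 and 2 and 7.21 in wild-type PLX3397 library 1, against 8.56 to 10.80 elsewhere. Choroid plexus markers reached 12.15 in R6/2 vehicle library 1 and 10.02 in wild-type PLX3397 library 1, against 5.50 to 6.89 elsewhere. Results that these libraries decide are given with and without them.

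Differences are log2 values with their standard error, from 1 limma fit of the 4 groups over all 12 libraries, and genes were called where the p adjusted over all genes (Benjamini-Hochberg) was under 0.05. Differences between groups of bulk tissue cannot separate fewer cells of a type from less RNA per cell.

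Gabrb1 and Gabrg1 encode the beta1 and the gamma1 subunit, and gamma1 is a gamma form that makes the receptor less sensitive to many benzodiazepines. Both genes lie in a cluster on chromosome 5 of GRCm38 that also holds Gabra2 and Gabra4. Gabrg1 (NCBI gene 14405, 70751047 to 70842617) is followed by Gabra2 (gene 14395, 70958392 to 71095849), Gabra4 (gene 14397, 71569734 to 71658308) and Gabrb1 (gene 14400, 71657921 to 72149572). All 4 are protein-coding genes, and positions span the whole gene. The spans of Gabra4 and Gabrb1 overlap by 388 bases, where reads cannot be assigned with certainty, since the use of strand in counting is not given in the sources used here.

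Gabrb1 was at 4.46, 4.77 and 3.54 log2 CPM in R6/2 mice on PLX3397 and at 2.98, 3.06 and 3.66 in R6/2 mice on vehicle. In wild-type mice it was at 2.77, 3.37 and 2.96 on PLX3397 and at 4.42, 4.36 and 4.01 on vehicle. Means were 4.26 ± 0.64, 3.23 ± 0.37, 3.03 ± 0.31 and 4.26 ± 0.23 in that order of groups (SD, n = 3 each). The levels of R6/2 mice on PLX3397 and wild-type mice on vehicle overlapped, as did those of R6/2 mice on vehicle and wild-type mice on PLX3397, and wild-type vehicle levels lay above both low groups. Only R6/2 PLX3397 library 3 fell within the range of the R6/2 vehicle libraries.

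Gabrg1 had its lower levels in the same groups as Gabrb1. It was at 6.65, 6.57 and 5.19 log2 CPM in R6/2 mice on PLX3397 and at 5.10, 4.60 and 4.85 in R6/2 mice on vehicle. Wild-type mice had 3.85, 5.15 and 4.32 on PLX3397 and 5.99, 5.70 and 6.39 on vehicle. Library 3 was again the lowest of the R6/2 PLX3397 libraries, and it lay just above the highest R6/2 vehicle library. The difference Gabrb1 minus Gabrg1 was -2.38 to -1.09 over the 12 libraries and overlapped between all 4 groups.

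Gabra2 encodes an alpha subunit of synaptic receptors. It was at 4.44, 6.71 and 4.45 log2 CPM in R6/2 mice on PLX3397 and at 3.23, 4.37 and 5.07 in R6/2 mice on vehicle. Levels in wild-type mice were 3.65, 5.48 and 4.34 on PLX3397 and 6.51, 6.42 and 5.24 on vehicle. The wild-type vehicle libraries were above all R6/2 vehicle libraries, while in the R6/2 PLX3397 group library 2 stood above the other two.

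The starts of Gabrg1 and Gabra2 are shown because the genes are neighbours with the 2 lowest transcript GC contents among the 9 (35.3% and 38.4%), the property whose trend was removed in an alternative given below. Each window is the 250 bases before the gene's start, from RefSeq on GRCm38.p6, read 5′ to 3′ on the gene's strand, with motif matches in capitals. Gabrg1 is at chr5:70842618-70842867 and Gabra2 at chr5:71095850-71096099, both on the minus strand.
Gabrg1: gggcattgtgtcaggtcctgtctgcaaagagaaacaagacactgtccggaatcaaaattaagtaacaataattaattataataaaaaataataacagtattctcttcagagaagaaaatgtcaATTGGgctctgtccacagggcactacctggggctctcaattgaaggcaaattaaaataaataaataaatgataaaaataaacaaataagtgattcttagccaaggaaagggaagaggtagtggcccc
Gabra2: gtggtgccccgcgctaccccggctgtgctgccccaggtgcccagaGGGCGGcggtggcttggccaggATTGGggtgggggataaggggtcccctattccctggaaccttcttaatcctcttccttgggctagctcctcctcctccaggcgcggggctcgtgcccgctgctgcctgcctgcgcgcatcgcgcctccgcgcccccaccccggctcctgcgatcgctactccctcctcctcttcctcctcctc
The Gabrg1 window is 35.6% GC and the Gabra2 window 70% GC. Both hold the CCAAT box in reverse (ATTGG in capitals), and Gabra2 also holds the GC box GGGCGG. Of 32851 promoter windows of this length, 33.8% hold CCAAT and 32.7% GGGCGG on either strand. Neither window holds TATAAA (12.4% of all windows), TGACGTCA (1.55%), CACGTG (6.02%) or GCGTGGGCG (0.536%) on either strand. These matches describe letters and not bound sites. Promoter entries matched 8 of the 9 genes.

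Gabrd encodes the delta subunit (gene 14403, chromosome 4, 155384979 to 155398098, protein coding), which takes the place of gamma in receptors outside synapses. It was at 2.68, 4.89 and 5.28 log2 CPM in R6/2 mice on PLX3397 and at 3.99, 5.59 and 5.35 in R6/2 mice on vehicle. Wild-type levels were 7.91, 7.40 and 7.64 on PLX3397 and 6.67, 6.93 and 6.04 on vehicle. All 6 wild-type libraries were above all 6 R6/2 libraries. R6/2 PLX3397 library 1 was the lowest, with 156 reads. Group means were 4.29 ± 1.40 in R6/2 mice on PLX3397 and 4.98 ± 0.86 in R6/2 mice on vehicle, whose libraries overlapped (SD, n = 3 each). They were 7.65 ± 0.26 in wild-type mice on PLX3397 and 6.55 ± 0.46 in wild-type mice on vehicle, whose libraries did not overlap.

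Gabra4 encodes alpha4, the usual partner of delta. It was at 5.91, 7.31 and 6.92 log2 CPM in R6/2 mice on PLX3397 and at 5.96, 6.97 and 7.00 in R6/2 mice on vehicle. Wild-type mice had 7.40, 6.72 and 7.70 on PLX3397 and 7.75, 8.05 and 6.80 on vehicle. The 4 groups overlapped. Gabrd minus Gabra4 was -3.23, -2.41 and -1.63 in R6/2 mice on PLX3397 and -1.97, -1.38 and -1.65 in R6/2 mice on vehicle, on the log2 CPM scale. In wild-type mice it was 0.52, 0.68 and -0.06 on PLX3397 and -1.08, -1.12 and -0.77 on vehicle. The difference therefore separated both genotypes on each diet and, in wild-type mice, both diets, while the R6/2 diets overlapped. It was chosen after its values were seen and was not tested.

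Gabre and Gabrq encode the epsilon and theta subunits and lie on the X chromosome beside Gabra3. Gabre (gene 14404) spans 72256926 to 72274828, Gabra3 (gene 14396) 72432676 to 72656919 and Gabrq (gene 57249) 72825163 to 72842607, all protein coding. Gabre was at 3.61, 2.98 and 0.95 log2 CPM in R6/2 mice on PLX3397 and at 1.49, -1.77 and -1.75 in R6/2 mice on vehicle. In wild-type mice it was at -1.52, -1.34 and 0.24 on PLX3397 and at 0.50, -1.30 and 2.92 on vehicle. These levels rest on few reads, from 4 in R6/2 vehicle libraries 2 and 3 to 300 in R6/2 PLX3397 library 1. Spread within groups was wide. R6/2 mice on PLX3397 lay above wild-type mice on PLX3397 and overlapped both vehicle groups, through library 3 at 0.95. The 3 groups other than R6/2 on PLX3397 overlapped each other.

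Gabrq was at 4.89, 3.83 and 1.93 log2 CPM in R6/2 mice on PLX3397 and at 1.93, 0.14 and 0.62 in R6/2 mice on vehicle. Wild-type levels were -1.32, -1.19 and 0.04 on PLX3397 and 0.66, -0.15 and 3.95 on vehicle. The reads behind these levels numbered 6 in wild-type PLX3397 library 1 and 729 in R6/2 PLX3397 library 1. Both genes were high in the same libraries: R6/2 PLX3397 libraries 1 and 2 and wild-type vehicle library 3 held the 3 highest levels of each. Sums of hypothalamic markers were 6.20, 4.92 and 7.20 log2 CPM in these libraries, while wild-type PLX3397 libraries 2 and 3, low in both genes, had sums of 5.27 and 5.79.

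Gabra3 encodes an alpha subunit known from the thalamic reticular nucleus and monoamine neurons. It was at 7.66, 6.84 and 7.12 log2 CPM in R6/2 mice on PLX3397 and at 6.67, 7.28 and 7.06 in R6/2 mice on vehicle. Levels in wild-type mice were 5.23, 6.71 and 6.70 on PLX3397 and 6.82, 6.40 and 7.29 on vehicle. Wild-type PLX3397 library 1 was far below the rest, and the group lay below R6/2 mice on PLX3397.

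Gabra5 encodes an alpha subunit of receptors outside synapses, best known from the hippocampus (gene 110886, chromosome 7, 57407669 to 57591016, protein coding). It was at 5.38, 5.60 and 5.53 log2 CPM in R6/2 mice on PLX3397 and at 5.82, 5.61 and 5.60 in R6/2 mice on vehicle. Wild-type mice had 4.04, 5.48 and 5.80 on PLX3397 and 5.03, 4.59 and 5.73 on vehicle. It varied least of the 9 over the 12 libraries, by 1.79 from lowest to highest, against 6.21 for Gabrq, 5.38 for Gabre and 5.23 for Gabrd.

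**Figure D1:**
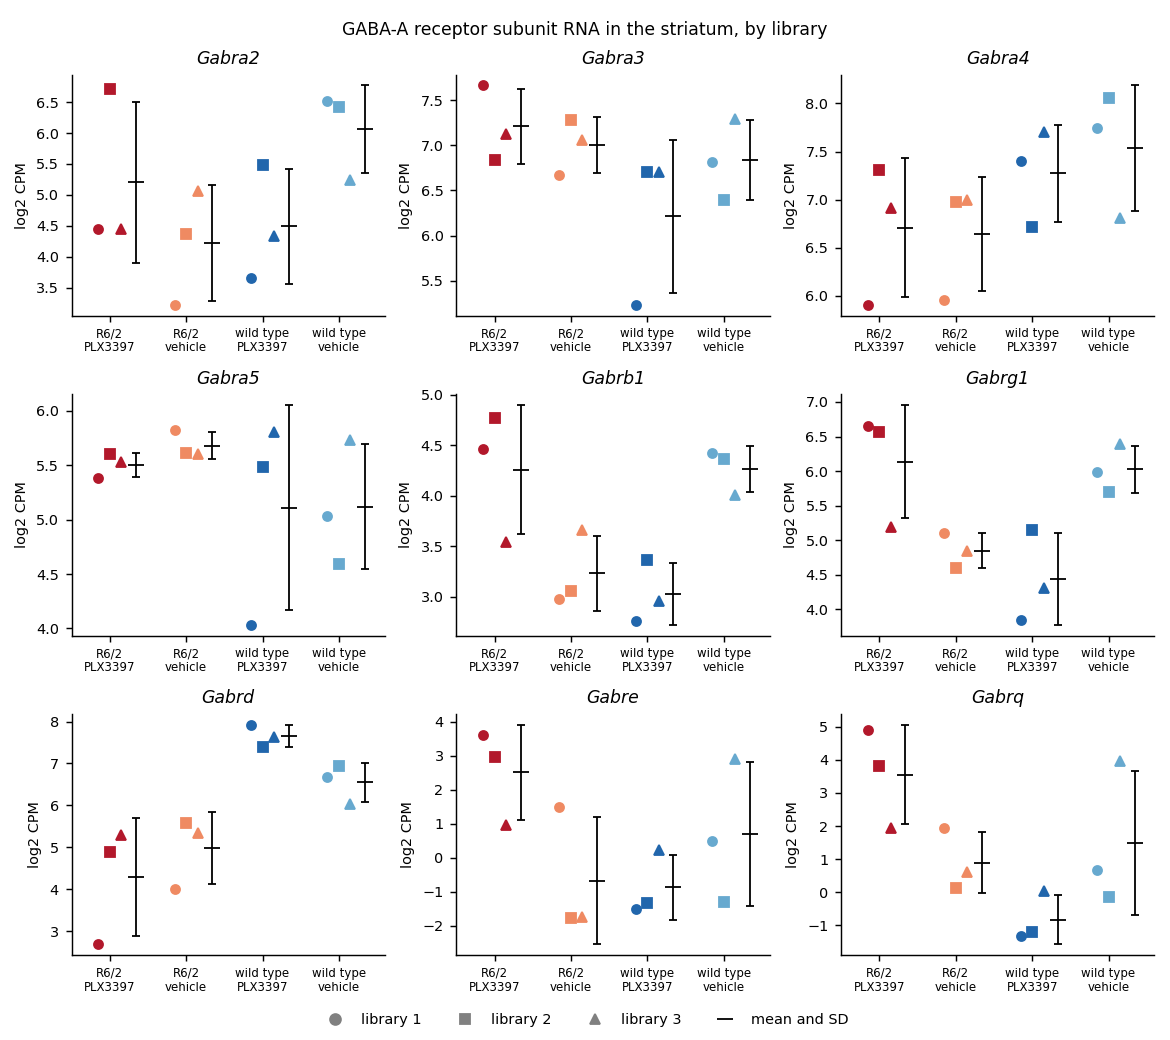
Each panel plots 1 subunit gene in log2 CPM for the 3 libraries of each group, with the mean and SD as bars. Gabrb1 and Gabrg1 are low in R6/2 mice on vehicle and in wild-type mice on PLX3397, Gabrd is lower in all R6/2 libraries than in all wild-type libraries, and Gabre and Gabrq are spread widely.

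On PLX3397, R6/2 striatum differed from wild-type striatum in Gabrd, which was 10.3-fold lower, and in Gabrb1, Gabrg1, Gabre and Gabrq, which were 2.34-fold, 3.24-fold, 10.5-fold and 20.7-fold higher. This comparison asked what the transgene changes where microglia had been removed. Of the 9 genes 5 were called, where 35.0% of all genes were called in this comparison. Higher calls numbered 4, against 17.1% of all genes, and lower calls 1, against 17.9%. The groups did not overlap for Gabra3 and the 5 called genes, where 46.8% of all genes did not overlap. The median difference of the 9 was 1.00, against -0.003 over all genes.

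Gabrd had a difference of -3.36 ± 0.61 (limma adjusted p = 0.00276), Gabrq one of 4.37 ± 1.02 (adjusted p = 0.00890) and Gabrg1 one of 1.70 ± 0.40 (adjusted p = 0.00969). Gabrb1 was higher by 1.23 ± 0.31 (adjusted p = 0.0125) and Gabre by 3.39 ± 1.17 (adjusted p = 0.0433). For Gabra3 the difference was 1.00 ± 0.39 and missed the threshold (adjusted p = 0.0655), passing it without wild-type PLX3397 library 3 (0.0479). Gabrb1 lost its call without R6/2 PLX3397 library 2 (adjusted p = 0.0512), and 3 of the 9 genes were then called. Gabre lost its call without R6/2 PLX3397 library 1 (adjusted p = 0.138) or 2 (0.114), R6/2 vehicle library 3 (0.0511), wild-type PLX3397 library 1 (0.0974), wild-type PLX3397 library 2 (0.106) and wild-type vehicle library 1 (0.0586), each left out alone.

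The transcripts of these genes differ in GC content, from 35.3% for Gabrg1 and 40.9% for Gabrb1 to 45.0% for Gabrq, 53.8% for Gabre and 54.7% for Gabrd. With a GC and length trend removed from each library, Gabrb1 had a difference of -0.00139 (adjusted p = 0.997) and Gabrg1 one of 0.88 (adjusted p = 0.125), and both calls ended. Gabrd kept its call at -2.98 (adjusted p = 0.00865), as did Gabre at 3.55 (0.0474) and Gabrq at 3.95 (0.0210). Without both R6/2 PLX3397 libraries low in cortical markers, 1 library remained in that group, its spread was taken from the other groups, and 0 of the 9 were called. Gabrd was then at -2.36 (adjusted p = 0.0656), Gabrq at 2.76 (0.261), Gabre at 1.83 (0.527), Gabrg1 at 0.75 (0.335) and Gabrb1 at 0.51 (0.390).

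Markers of cell types were counted in the same comparison, where 17.1% of all genes were called higher and 17.9% lower. Outside medium spiny neurons and oligodendrocyte precursors, the counts below lie near or below these shares. Of 14 medium spiny neuron markers, 12 were lower in R6/2 mice on PLX3397 than in wild-type mice on PLX3397, with summed levels of 9.62 to 11.38 and 12.66 to 13.75 log2 CPM. Their part in the Gabrd difference was not tested. Of 12 markers of thalamus, septum and pallidum, 2 were higher, with sums of 7.10 to 8.61 and 6.58 to 8.26, and of 7 measured hypothalamic markers 1 was higher, with sums of 4.41 to 6.20 and 3.89 to 5.79. None of these markers was at 0 reads in either group. The hypothalamic marker that was higher was Trh, the thyrotropin-releasing hormone precursor, at 4.36 ± 0.89 in R6/2 mice and 2.03 ± 0.56 in wild-type mice. Hypothalamic markers Hdc and Pomc were lower in R6/2 mice without overlap but not called. Hdc averaged -0.03 in R6/2 mice and 2.38 in wild-type mice, and Pomc 0.32 and 2.06. Of the 7 hypothalamic differences 4 were positive and 3 negative. Of 7 oligodendrocyte precursor markers 3 were higher, with sums of 8.43 to 8.74 in R6/2 mice and 8.19 to 8.51 in wild-type mice. Astrocyte markers gave 1 higher and 2 lower of 9, and interneuron markers 2 lower of 10. Of 10 cortical markers 2 were called higher and 0 lower, but 8 differences were negative, and the median was -1.29. The part of these cells in the Gabre, Gabrq, Gabrb1 and Gabrg1 differences was not tested.

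**Figure D2:**
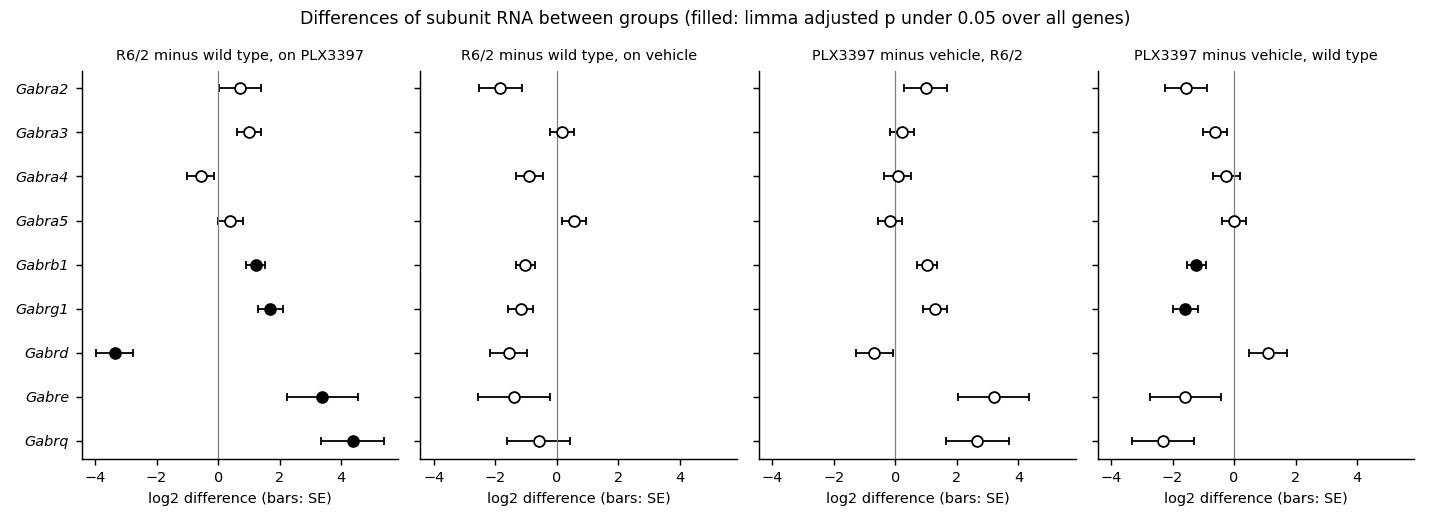
Log2 differences between groups with their standard errors are drawn for the 9 genes, and filled points passed an adjusted p of 0.05 over all genes. Of the 9, 5 are filled for R6/2 against wild type on PLX3397, 0 for R6/2 against wild type on vehicle, 0 for PLX3397 in R6/2 mice and 2 for PLX3397 in wild-type mice.

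On vehicle, the striatum of R6/2 mice held less Gabra2, Gabrb1, Gabrg1 and Gabrd RNA in each library than that of wild-type mice, but 0 of the 9 genes passed the test. This comparison asked what the transgene changes with microglia present. Over all genes 2.11% were called, and 0 of the 9 were called by limma-voom on recovered reads too. At an unadjusted p under 0.05 stood the same 4 genes, where 22.6% of all genes did. Groups did not overlap in the lower direction for these 4, against 17.1% of all genes, and in the higher direction for 0, against 16.4%. The median of the 9 was -1.03, against 0.01 over all genes.

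Gabra2 had a difference of -1.84 ± 0.69 (limma adjusted p = 0.159), Gabrd one of -1.57 ± 0.61 (adjusted p = 0.165), Gabrg1 one of -1.17 ± 0.40 (adjusted p = 0.128) and Gabrb1 one of -1.03 ± 0.31 (adjusted p = 0.0981). Gabrg1 passed the threshold where the 6 libraries compared were fitted alone (0.0414). Removal of the GC and length trend brought Gabrg1 to -0.29 (adjusted p = 0.654), Gabrb1 to -0.36 (0.338) and Gabra2 to -1.19 (0.167), and left Gabrd at -1.61 (0.131). Beside these, 5 of 14 medium spiny neuron markers and 4 of 12 markers of thalamus, septum and pallidum (Zic1, Lhx8, Isl1 and Gbx1) were lower. Sums of the medium spiny neuron markers were 9.61 to 10.87 log2 CPM in R6/2 mice and 11.64 to 13.12 in wild-type mice, and those of the other list were 6.62 to 7.53 in R6/2 mice and 7.80 to 8.79 in wild-type mice. Also lower were 3 of 10 interneuron markers, all of cholinergic neurons (Chat, Slc5a7 and Slc18a3), and 2 of 9 astrocyte markers (Gja1 and Slc1a3). Interneuron sums were 7.56 to 7.99 in R6/2 mice and 8.69 to 8.85 in wild-type mice, and astrocyte sums were 11.55 to 11.95 in R6/2 mice and 12.19 to 12.52 in wild-type mice. Cortical markers went the other way, with 10 of 10 differences positive, a median of 1.11 and 0 called. Differences of the 6 endothelial markers were positive too, with 0 called. No marker of these lists was at 0 reads, and their part in the subunit differences was not tested.

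In wild-type mice, PLX3397 went with lower Gabrb1 and Gabrg1 RNA, by 2.35-fold and 3.00-fold against vehicle. The comparison asked what the drug does to a striatum without the transgene. These were 2 of the 9 genes, both lower, where 14.2% of all genes were called and 8.30% were called lower. Gabrd did not overlap in the higher direction, at 1.10 ± 0.61, and missed the threshold (limma adjusted p = 0.221). Groups did not overlap for 3 of the 9 in all, against 36.1% of all genes. The median of the 9 was -1.23, against 0.005 over all genes.

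Gabrg1 fell by 1.58 ± 0.40 on the log2 scale (limma adjusted p = 0.0295) and Gabrb1 fell by 1.23 ± 0.31 (adjusted p = 0.0283). Neither call was stable to the loss of a library. Gabrb1 lost its call without wild-type PLX3397 library 1 (adjusted p = 0.0517) or 3 (0.0588) or wild-type vehicle library 1 (0.109) or 2 (0.102). Gabrg1 lost its call without wild-type PLX3397 library 1 (0.0582) or 3 (0.0624) or wild-type vehicle library 1 (0.0977), 2 (0.0748) or 3 (0.0672), and also with the 6 libraries fitted alone (0.0645). With the GC and length trend removed, the difference was -0.02 for Gabrb1 (adjusted p = 0.963) and -0.63 for Gabrg1 (adjusted p = 0.347). Of 12 markers of thalamus, septum and pallidum, 1 was lower on PLX3397, with sums of 6.58 to 8.26 log2 CPM on PLX3397 and 7.80 to 8.79 on vehicle, and their part was not tested. Of 14 medium spiny neuron markers 0 were called, but 14 differences were positive, with a median of 0.69. Groups did not overlap for 4 of these 14, all higher, against 36.1% of all genes. Sums of the 14 overlapped, at 12.66 to 13.75 on PLX3397 and 11.64 to 13.12 on vehicle. Their part in the Gabrd difference was not tested. The sums of 9 astrocyte markers were 11.74 to 12.11 on PLX3397 and 12.19 to 12.52 on vehicle, and Gja1 and Aqp4 were lower. Astrocyte markers were mixed, with 4 positive and 5 negative differences. Groups did not overlap for 4 lower markers and 2 higher ones (Aldoc and S100b, not called). Of 7 markers of oligodendrocyte precursors, 3 were lower (Pdgfra, Gpr17 and Sox6), with sums that did not overlap and medians of 8.34 on PLX3397 and 8.96 on vehicle. None of these glial markers was at 0 reads, and their part was not tested either.

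In R6/2 mice, PLX3397 against vehicle gave 0 calls among the 9 genes, and 0 by limma-voom, where 1.10% of all genes were called. At an unadjusted p under 0.05 stood Gabrb1, Gabrg1, Gabre and Gabrq, 4 of 9, where 13.1% of all genes did. This comparison asked what the drug does where the transgene is present. Gabrg1 was higher in all 3 PLX3397 libraries, by 1.28 ± 0.40 (limma adjusted p = 0.261), and so was Gabrq, by 2.65 ± 1.02 (adjusted p = 0.324). For Gabrq the margin was a near-tie, with the lowest PLX3397 library at 1.934 and the highest vehicle library at 1.925. Gabra5 did not overlap in the lower direction, at -0.18 ± 0.40 (adjusted p = 0.859). Its margin was a near-tie too, with the highest PLX3397 library at 5.600 and the lowest vehicle library at 5.602. Groups did not overlap for 24.1% of all genes. The median of the 9 was 0.98, against -0.01 over all genes. Without R6/2 PLX3397 library 3, Gabrg1 and Gabrb1 were called, 2 of the 9, with Gabrg1 at 1.76 (adjusted p = 0.0252). Without libraries 1 and 2 of that group, which leaves library 3 alone, Gabrg1 was at 0.34 and Gabrq at 1.04. With the GC and length trend removed Gabrg1 was at 0.54 (adjusted p = 0.642). Beside these, 3 of 12 thalamus, septum and pallidum markers and 1 of 7 hypothalamic markers were higher on PLX3397, with hypothalamic sums of 4.41 to 6.20 on PLX3397 and 1.90 to 4.67 log2 CPM on vehicle, where 1 marker was at 0 reads in library 2. Their part in the subunit differences was not tested.

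The drug's change differed between the genotypes for Gabrb1, Gabrg1 and Gabrq, each with a more positive PLX3397 minus vehicle difference in R6/2 mice than in wild-type mice. This interaction is the difference in R6/2 mice minus that in wild-type mice. It was called for 3 of the 9 genes, all positive, where 17.0% of all genes were called and 9.29% were called with a positive sign. It was 2.26 ± 0.44 for Gabrb1 (limma adjusted p = 0.0148), 2.87 ± 0.57 for Gabrg1 (adjusted p = 0.0156) and 4.96 ± 1.44 for Gabrq (adjusted p = 0.0403). Gabre at 4.77 ± 1.65 (adjusted p = 0.0672) and Gabra2 at 2.55 ± 0.98 (adjusted p = 0.0906) missed the threshold. Gabre passed it without either R6/2 PLX3397 library 3 (0.0458) or R6/2 vehicle library 1 (0.0473). The median of the 9 was 2.26, against -0.05 over all genes.

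Gabrb1 and Gabrg1 kept the interaction call when any 1 library was left out. They lost it with the GC and length trend removed, at 0.36 (adjusted p = 0.553) and 1.17 (adjusted p = 0.244), and without both R6/2 PLX3397 libraries low in cortical markers, at 1.55 (adjusted p = 0.235) and 1.93 (adjusted p = 0.235), where the lone library left in that group was assumed to vary like the other groups. Gabrq lost the call without any 1 of 9 libraries: R6/2 PLX3397 library 1 (adjusted p = 0.0928) or 2 (0.0883), R6/2 vehicle library 1 (0.0550), 2 (0.0780) or 3 (0.0717), library 1 (0.0544) or 2 (0.0711) of wild-type mice on PLX3397 and library 1 (0.0700) or 2 (0.0504) of those on vehicle. It was 4.39 with the trend removed (adjusted p = 0.116). Of 12 thalamus, septum and pallidum markers 5 had a positive interaction, of 7 hypothalamic markers 1, and of 14 medium spiny neuron markers 0. It was also positive for 3 of 7 oligodendrocyte precursor markers (Pdgfra, Gpr17 and Sox6), 2 of 9 astrocyte markers (Gja1 and Aqp4) and 1 of 10 interneuron markers (Slc5a7). The part of these cells in the subunit interactions was not tested.

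**Figure D3:**
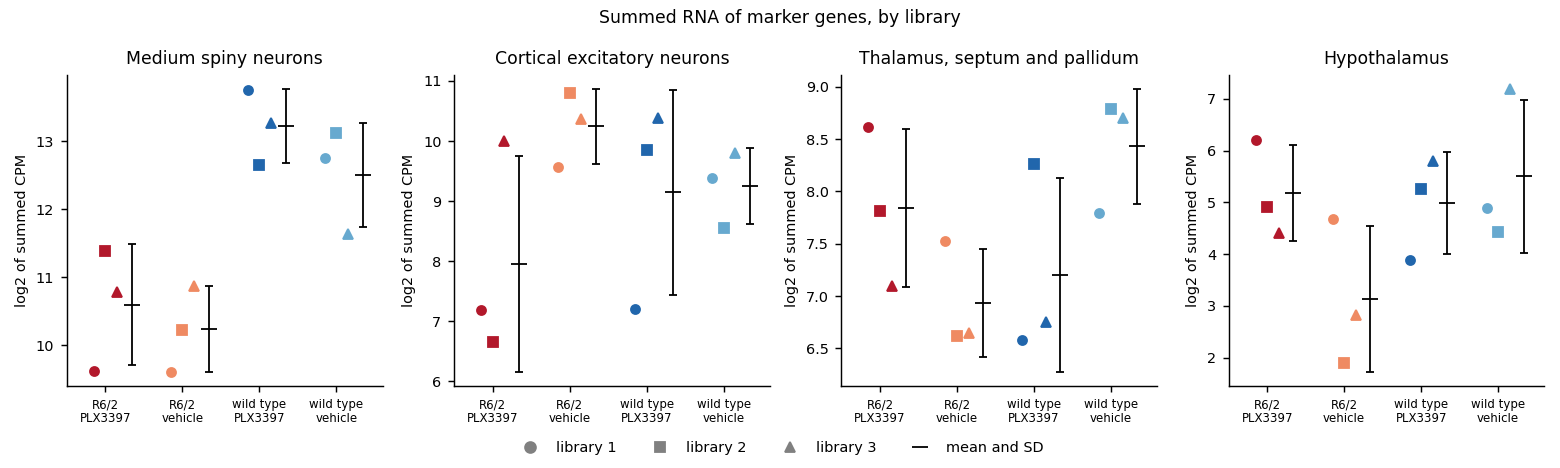
The log2 of the summed CPM of 4 marker lists is plotted for the 3 libraries of each group, with mean and SD. Medium spiny neuron markers sit at 9.61 to 11.38 in all R6/2 libraries and at 11.64 to 13.75 in all wild-type libraries, and cortical markers are low in R6/2 PLX3397 libraries 1 and 2 and wild-type PLX3397 library 1.

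Levels of different subunits were compared per kilobase of exon. By the median over the 12 libraries, Gabra3 at 29.0, Gabra4 at 20.8, Gabrd at 19.8 and Gabra5 at 15.9 CPM per kb were the most abundant of the 9. Gabrg1 at 4.59 and Gabra2 at 3.63 followed, and Gabrb1 was at 0.878, Gabrq at 0.291 and Gabre at 0.274. The place of Gabrd in the group means differed between genotypes. It averaged 8.71 in R6/2 mice on PLX3397 and 12.1 in R6/2 mice on vehicle, below the means of Gabra3, Gabra4 and Gabra5. In wild-type mice it averaged 70.6 on PLX3397 and 33.6 on vehicle, above their means. On vehicle the wild-type means of Gabra4 and Gabra3 were close to it, at 32.5 and 30.1, and the libraries of Gabrd and Gabra3 overlapped. The libraries of Gabrd and Gabra4 overlapped on this scale in the groups other than wild-type mice on PLX3397. In R6/2 mice on vehicle Gabrd reached 16.7, above the lowest Gabra5 library at 16.3. The ranges of neighbours in this order overlapped: Gabrd alone ran from 2.23 to 83.9 CPM per kb and Gabra3 from 9.58 to 51.6.

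Shares were taken within the subunits reported here. Of the summed CPM per kb of Gabrd, Gabrg1, Gabrg3, Gabre and Gabrq, Gabrd made up 9.31%, 37.1% and 68.3% in R6/2 mice on PLX3397 and 49.0%, 81.4% and 76.0% in R6/2 mice on vehicle. In wild-type mice its share was 97.3%, 92.3% and 95.5% on PLX3397 and 79.0%, 84.1% and 59.3% on vehicle. The share of Gabrd was higher in each wild-type library on PLX3397 than in any other library, while both vehicle groups overlapped. Gabrg1 averaged 40.0% ± 15.1 in R6/2 mice on PLX3397, 24.4% ± 12.5 in R6/2 mice on vehicle, 4.25% ± 2.58 in wild-type mice on PLX3397 and 19.6% ± 7.38 in wild-type mice on vehicle (SD, n = 3 each). Gabrq reached 23.1% in R6/2 PLX3397 library 1 and was at most 0.265% in wild-type mice on PLX3397. Within Gabra2, Gabra3, Gabra4 and Gabra5, Gabra4 averaged 23.3% ± 9.48 in R6/2 mice on PLX3397, 24.0% ± 5.14 in R6/2 mice on vehicle, 43.6% ± 17.9 in wild-type mice on PLX3397 and 38.3% ± 14.7 in wild-type mice on vehicle. The Gabra4 shares of these groups overlapped.

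**Figure D4:**
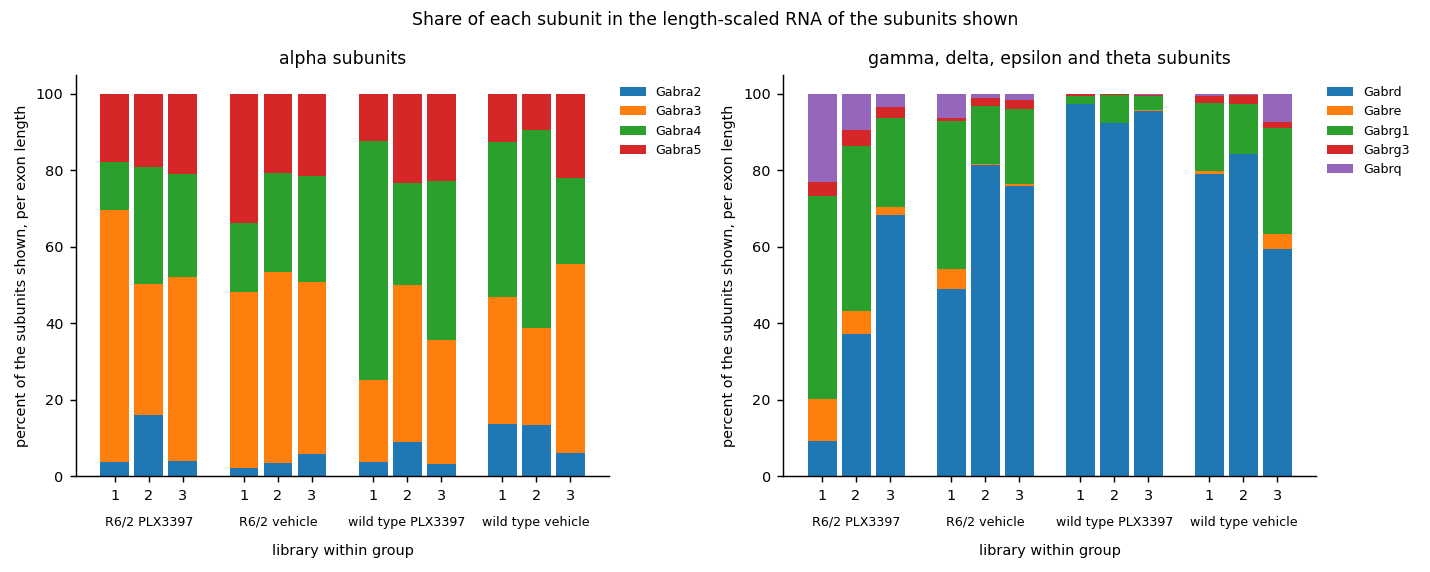
Bars give, for each library, the share of each subunit in the CPM per kb of the subunits shown, in percent, with Gabra2 to Gabra5 at left and Gabrd, Gabre, Gabrg1, Gabrg3 and Gabrq at right. Gabrd makes up 92.3% to 97.3% of the right panel in wild-type mice on PLX3397 and 9.31% to 68.3% in R6/2 mice on PLX3397.

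For each gene the 3 genes with the most similar pattern were found over the 12 libraries, by the root mean square difference of centred log2 CPM. Nearest to Gabrg1 were Lhfpl3 (0.28), Ankrd34b (0.30) and Pgap1 (0.32), and nearest to Gabrb1 were Erich3 (0.20), Uggt2 (0.24) and Pcdh17 (0.25). Gabrd was nearest to Kcnh3 (0.23), Ackr2 (0.30) and Neu2 (0.30), and Gabra4 to Kcnj2 (0.18) and Kcna1 (0.23), among those reported here. Gabre and Gabrq shared a neighbour and were in each other's list: Gabre was nearest to Hmx3 (0.57), AW551984 (0.66) and Gabrq (0.73), and Gabrq to Brs3 (0.61), Hmx3 (0.67) and Gabre (0.73). Gabra2 was nearest to Rbm41 (0.41), Gria2 (0.41) and Kif15 (0.42). Gabra3 was nearest to Rassf5 (0.18), Nkrf (0.19) and Limk1 (0.20), and Gabra5 to Cnrip1 (0.16), Rgs19 (0.22) and Mettl27 (0.22).

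Gabrb2, Gabrg3 and Gabrr2 were tested in the same fit. The interaction was called for Gabrb2, the common beta form, at 2.96 ± 0.75 (adjusted p = 0.0274), and for Gabrg3 at 2.93 ± 0.77 (adjusted p = 0.0304). It was lost for both without R6/2 PLX3397 library 1 (0.0608 for Gabrb2 and 0.0688 for Gabrg3) or 2 (0.0688 and 0.0763) or wild-type vehicle library 1 (0.0729 and 0.0706) or 2 (0.0640 and 0.0762). For Gabrb2 it was also lost without R6/2 vehicle library 1 (0.0611), and for Gabrg3 without wild-type PLX3397 library 2 (0.0567). Of 8 alternatives other than leaving out 1 library, 2 ended the call of each gene. Among these 8 the interaction was as low as 1.98 for Gabrb2 and 1.47 for Gabrg3. Between pairs of groups none of these genes was called, though for both Gabrb2 and Gabrg3 the groups did not overlap in 3 comparisons, lower in R6/2 than in wild-type mice on vehicle, lower on PLX3397 than on vehicle in wild-type mice and higher on PLX3397 than on vehicle in R6/2 mice. Gabrg3 also did not overlap between genotypes on PLX3397, higher in R6/2 mice. These comparisons share libraries, so such patterns are not independent.

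Genes that make and package GABA were lower in R6/2 than in wild-type mice on vehicle, where 3 of 8 measured genes fell and 0 rose. Gad1, which makes most GABA, fell by 1.57 ± 0.22 (limma adjusted p = 0.0161) to 8.17 ± 0.27 log2 CPM in R6/2 mice, against 9.74 ± 0.28 in wild-type mice. Gad2, its synaptic counterpart, fell by 1.92 ± 0.36 (adjusted p = 0.0321), and Slc32a1, the vesicular GABA transporter, by 0.91 ± 0.20 (adjusted p = 0.0432). Each call ended without wild-type vehicle library 1 (0.101, 0.136 and 0.128 for Gad1, Gad2 and Slc32a1) or 2 (0.0856, 0.141 and 0.185) or R6/2 vehicle library 2 (0.0699, 0.115 and 0.139). Those of Gad2 and Slc32a1 also ended without R6/2 vehicle library 1 (0.0898 and 0.114) or 3 (0.0542 and 0.0619), and that of Slc32a1 without R6/2 PLX3397 library 1 (0.0543) or 2 (0.0511), wild-type PLX3397 library 3 (0.0583) or wild-type vehicle library 3 (0.0657). In this list 2 genes were higher in R6/2 than in wild-type mice on PLX3397, 0 were called for the drug in either genotype and 4 had a positive interaction. Over all genes 2.11% were called between genotypes on vehicle, 17.1% were higher between genotypes on PLX3397 and 9.29% had a positive interaction.

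Of 23 genes of the inhibitory postsynapse and receptor trafficking, 4 were higher and 3 lower in R6/2 against wild-type mice on PLX3397, and 1 was higher and 4 lower for the drug in wild-type mice. Over all genes 35.0% and 14.2% were called in these comparisons, so the counts of this list in them lie near the background. Between genotypes on vehicle, and for the drug in R6/2 mice, counts were 0, where 2.11% and 1.10% of all genes were called. The interaction was called for 5 of the 23, all positive, where 9.29% of all genes were called with a positive sign. Gphn, the gephyrin scaffold, was called in none of the comparisons and averaged 6.40, 6.21, 6.45 and 6.53 log2 CPM in R6/2 mice on PLX3397, R6/2 mice on vehicle, wild-type mice on PLX3397 and wild-type mice on vehicle. Rdx, the radixin that anchors alpha5 receptors outside synapses, was higher in R6/2 than in wild-type mice on PLX3397 by 1.11 (limma adjusted p = 0.000972). In wild-type mice Rdx fell by 0.78 on PLX3397 (adjusted p = 0.0145), a call that ended without wild-type vehicle library 1 (0.0679) or 2 (0.0688). It also ended in 2 of 9 alternatives other than leaving out 1 library, among them removal of the GC and length trend (0.0714).

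Of 7 chloride transport genes, 3 were higher in R6/2 than in wild-type mice on PLX3397, 3 were lower on PLX3397 than on vehicle in wild-type mice and 3 had a positive interaction. Slc12a2, which brings chloride into cells, was higher in R6/2 mice on PLX3397 by 1.16 (limma adjusted p = 0.00334) and fell by 1.16 in wild-type mice on PLX3397 (adjusted p = 0.0126). With the trend removed these were 0.47 (adjusted p = 0.0943) and -0.48 (adjusted p = 0.144), and the fall in wild-type mice also lost its call without wild-type vehicle library 1 (0.0663) or 2 (0.0622). Slc12a5, which takes chloride out of neurons, averaged 9.49, 9.38, 9.34 and 9.18 log2 CPM in the 4 groups in the order above and was not called. Of 6 GABA-B receptor genes, 2 were higher in R6/2 than in wild-type mice on PLX3397, 2 were lower on PLX3397 in wild-type mice and 2 had a positive interaction. Kctd12, an auxiliary subunit of that receptor, fell by 1.40 on PLX3397 in wild-type mice (adjusted p = 0.00232) and kept its call in all 21 alternatives. Of 4 measured glycine receptor genes, 2 were higher in R6/2 than in wild-type mice on PLX3397, 1 was lower on PLX3397 in wild-type mice and 2 had a positive interaction. Chloride, GABA-B and glycine genes gave 0 calls in both other comparisons. Over all genes 17.1% were higher in R6/2 than in wild-type mice on PLX3397, 8.30% were lower on PLX3397 in wild-type mice and 9.29% had a positive interaction.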

How the data were processed

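Poly(A) selection and read layout are not given in the sources used here; RNA was made into TruSeq libraries, per the labels. The submitters' processing notes name STAR, featureCounts, edgeR and limma and give mm10 as the build, with no version numbers. The deposited table is named RPKM, but its values were log2 CPM with a prior: all libraries shared a lowest value of -3.46, and 100% of values came out as whole reads within a tolerance of 0.1 read. No linear values were therefore logged, and the log2 values were used as the authors deposited them.

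The 9 genes and all lists were chosen with earlier results of these data known. Groups were compared with limma 3.58.1 (R 4.3.3), in 1 fit over 15397 genes and 12 libraries with an intensity trend, two-sided, with Benjamini-Hochberg adjustment. A gene was named with its difference where it was called or its groups did not overlap. List genes were named where called, with up to 6 more. Alternatives were leaving out libraries, a replicate block, fits of 6 libraries, median-of-ratios scaling, a minimum mean of 1 CPM, a prior of 0.5 reads, removal of a GC and length trend (14305 genes, GENCODE M21), and limma-voom on recovered reads. Positions matched RefSeq on GRCm38 for 15078 genes. CPM per kb was divided by union exon length. The test was checked on simulated data. Same-numbered libraries correlated above 0.1 in 3 of 18 pairs, so numbers were not taken to pair mice. Tables were made in Python 3.11.15 (pandas 2.3.3) and plots with matplotlib 3.10.9. Some genes that the naming rules give are not reported here.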

Additional observations from a re-analysis of the deposited data

Results flagged for a closer look

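The PLX3397 difference differed between R6/2 and wild-type mice, by a test of that difference itself, for 3 of the 9 genes. The interaction was 2.26 ± 0.44 for Gabrb1 (limma adjusted p = 0.0148), with PLX3397 levels above all vehicle levels in 2 of 3 R6/2 libraries and below all vehicle levels in 3 of 3 wild-type libraries. It was 2.87 ± 0.57 for Gabrg1 (adjusted p = 0.0156), with 3 of 3 R6/2 libraries above and 3 of 3 wild-type libraries below vehicle. It was 4.96 ± 1.44 for Gabrq (adjusted p = 0.0403), a gene at 6 to 729 reads per library. With the GC and length trend removed these were 0.36 for Gabrb1 (adjusted p = 0.553) and 1.17 for Gabrg1 (adjusted p = 0.244), and Gabrq kept its call in 6 of 20 alternatives. These genes were picked with such differences in view. Each library was left out in turn, but no test for outlying libraries was run within the groups of 3.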

How the results depend on the processing

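Each count was recomputed under 21 alternatives (20 for the interaction). With the GC and length trend removed, calls over all genes were 865 for R6/2 against wild type on vehicle (486 higher, against 95 of 325 without removal), 3524 for R6/2 against wild type on PLX3397, 1150 for PLX3397 in wild type (850 higher, against 913 of 2191) and 567 interactions (138 positive, against 1430 of 2617). It moved the median of all genes to 0.10 on vehicle, against 0.01, and to 0.09 for PLX3397 in wild type, against 0.005. Of the 9 genes it left 3 called between genotypes on PLX3397, 0 for PLX3397 in wild type and 0 interactions, and the Gabrb1 difference between genotypes on PLX3397 turned to -0.00139 (adjusted p = 0.997).

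Fits of 6 libraries called 98 genes for PLX3397 in R6/2 mice, 351 in wild type and 2934 between genotypes on PLX3397, and 1 of the 9 for PLX3397 in wild type and 1 between genotypes on vehicle. limma-voom called 145 genes between genotypes on vehicle. The replicate block called 1110 for PLX3397 in wild type, 40 between genotypes on vehicle and 1432 interactions, and 1 of the 9 for PLX3397 in wild type, where Gabrg1 was lost (0.0560). Under the block Gabre (0.0556) and the Gabrq interaction (0.0644) also lost their calls. Same-numbered pairs correlated at -0.32 to 0.40, and 17 of 36 differently numbered pairs exceeded 0.1.

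Without R6/2 PLX3397 libraries 1 and 2, calls were 58 for PLX3397 in R6/2, 1317 in wild type, 237 between genotypes on PLX3397 and 0 interactions, and 0 of the 9 between genotypes on PLX3397 and 0 of the 9 interactions. Without the pair of libraries rich in choroid plexus RNA they were 3560 for PLX3397 in wild type and 103 between genotypes on vehicle, and 1 of the 9 for PLX3397 in wild type. Leaving out each library in turn gave 1 to 561 genes between genotypes on vehicle, 3383 to 5630 on PLX3397, 228 to 2716 for PLX3397 in wild type, 125 to 381 in R6/2 and 537 to 3532 interactions. Of the 9 genes these gave 0, 3 to 6, 0 to 2, 0 to 2 and 2 to 4.

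In 20 of 21 alternatives Gabrd (-3.86 to -2.36) and Gabrq (2.76 to 5.18) stayed called between genotypes on PLX3397. Alternatives that left out a vehicle library could change only the spread behind these differences and not the differences. Both calls ended without R6/2 PLX3397 libraries 1 and 2, at -2.36 for Gabrd and 2.76 for Gabrq. Gabre stayed called in 11 of 21 and had as few as 5 reads in a library of that comparison. The cause of these changes was not tested.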
